A study of Mus musculus with 6 samples.

Results

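The cytosolic ribosomal protein genes were followed in CD4+CD8+ double-positive (DP) thymocytes with and without a Lck-cre-driven deletion of Paxbp1. They were chosen by symbol, as every gene of the deposited table whose name begins with Rpl, Rps or Rplp and a number, together with Rpsa. The 9 Rps6k kinases and 7 symbols of processed pseudogenes that the same pattern finds were left out of 103 matches, so that 87 of the 22322 genes in the table remained. Of these, 51 carry the name of a large-subunit protein, 33 that of a small-subunit protein, and 3 (Rpl7l1, Rps19bp1 and Rps23rg1) fit the pattern without being standard parts of the ribosome.

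The ribosome is built from ribosomal RNA and a set of proteins that are each needed in about equal number, and the genes for these proteins lie scattered over the genome. Most of their messenger RNAs begin with a C followed by a run of pyrimidines, the 5′ terminal oligopyrimidine (TOP) element, through which mTOR signalling and the Larp1 protein set their translation and stability. Thymocytes make many ribosomes while they proliferate at the pre-TCR checkpoint and fewer once they rest as DP cells. A few of the proteins have been tied to other roles when they are not in a ribosome, such as the binding of Mdm2 by Rpl5 and Rpl11, which stabilises p53.

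RNA was sequenced from DP thymocytes sorted from the thymus of Paxbp1 fl/fl mice (labelled WT, here control, 3 libraries) and from Paxbp1 fl/fl Lck-cre mice (here cKO, 3 libraries), without treatment. Both groups carry loxP sites around exon 8 of Paxbp1 on a C57BL/6 background, the controls were littermates, and mice were 4 to 7 weeks old and of both sexes. Lck-cre acts in T-lineage cells from the double-negative stage onward, before the DP stage that was sorted. The labels do not say whether the libraries of a group came from separate mice, and p-values below measure the spread between these libraries, which may be technical.

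Libraries held between 18963775 and 26252248 counts. Paxbp1 itself had 774, 318 and 400 counts in the control libraries and 851, 905 and 1075 in the cKO libraries. Counts over the whole gene do not check the loss of exon 8, so cKO here means the libraries labelled as such. All 12 DP thymocyte marker genes were detected in every library, Cd4, Cd8a and Cd8b1 among them, with a summed level of 12658 to 14655 CPM (counts scaled to a common library size) in control and 9254 to 10909 CPM in cKO. Among the controls, library 1 stood apart for the ribosomal protein genes, with the lowest of the 6 values for 81 of the 84 genes that were tested.

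Ribosomal protein transcripts took a larger share of the cKO libraries. The 87 genes held 1.41%, 1.65% and 1.81% of all counts in the 3 control libraries and 2.24%, 2.08% and 2.16% in the 3 cKO libraries. Every cKO library lay above every control library, and the means were 1.62% ± 0.20 and 2.16% ± 0.0766 (SD, n = 3 each), a difference of 0.541 percentage points or a ratio of 1.33. The large-subunit genes went from 0.979% ± 0.115 to 1.3% ± 0.0424 and the small-subunit genes from 0.628% ± 0.0839 to 0.840% ± 0.0349. Both subunits therefore shifted by a like factor, 1.33 and 1.34, and the ratio of large-subunit to small-subunit counts was 1.56 ± 0.0275 in control and 1.55 ± 0.0212 in cKO. Mitochondrial ribosomal protein genes, a separate family of 78 genes for the ribosome inside mitochondria, held 0.438% ± 0.025 in control and 0.461% ± 0.00891 in cKO, a ratio of 1.05. These shares are of RNA in a sorted population, in which more cells with many ribosomal protein transcripts and more such transcripts per cell cannot be told apart.

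**Figure D1:**
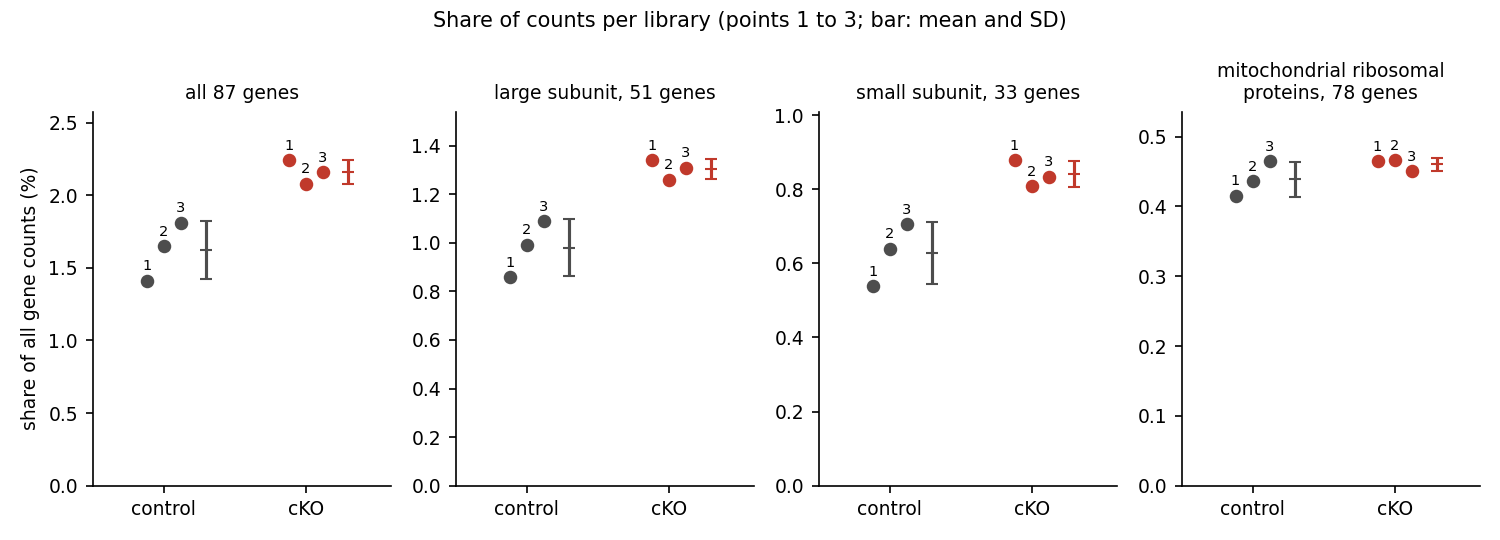
Share of all gene counts (%, y axis from 0) in each control (grey) and cKO (red) library for all 87 cytosolic ribosomal protein genes, for the large and small subunits and for mitochondrial ribosomal protein genes (numbered points are libraries and bars the mean and SD of 3). The cKO libraries sit between 2.08% and 2.24% in the first panel, above the control range of 1.41% to 1.81%, while the mitochondrial family overlaps between groups.

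Gene by gene, the difference was small and ran in one direction. The filter on low counts kept 84 of the 87 genes, and all 84 had a positive log2 fold change (cKO over control), with a median of 0.40, a middle range of 0.31 to 0.47 and extremes of 0.13 and 0.97. The median fold was 1.32, and 71 of the 84 folds fell between 1.2 and 1.6. Over all 11488 tested genes, 49.8% had a positive log2 fold change and the median was 0. The fold changes of the 84 genes had an SD of 0.133. The median standard error for a single gene was 0.132. It takes in shifts between libraries that the family shared, so it does not measure the spread between genes.

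With edgeR's quasi-likelihood test, 18 of the 84 genes rose at an adjusted p below 0.05, where 4.47% of all tested genes did. In the other direction 5.89% of all tested genes fell, and no ribosomal protein gene did, either by edgeR, by DESeq2 or at an unadjusted p below 0.05. No member was past a log2 fold change of 1 as well, a limit that 1.53% of all tested genes passed upward and 1.23% downward. At an unadjusted p below 0.05, 64 of the 84 were higher, where 1524 of all 11488 tested genes were higher and 1680 lower. For 71 of the 84, every cKO library lay above every control library, compared with 15.7% of all tested genes. The number of calls rested on the full set of libraries. No gene of the family was called without control library 2, without cKO library 1 or without cKO library 3, where 1.5%, 1.53% and 0.359% of all tested genes were called higher. Without cKO library 2, 2 were called (2.81% of all tested genes), both of them among the 18. Without control library 3, 15 were called (2.42% of all), 13 of them among the 18, and without control library 1, 22 were called (8.42% of all), 17 of them among the 18. By gene, the 18 were called in 0 (Rpl39) to 3 (Rpl5 and Rpl23) of these 6 fits. The median log2 fold change stayed between 0.30 and 0.50 in these fits, and every tested gene of the family had a positive value. DESeq2 called 46 of the 84, and 8.3% of all tested genes, higher.

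**Figure D2:**
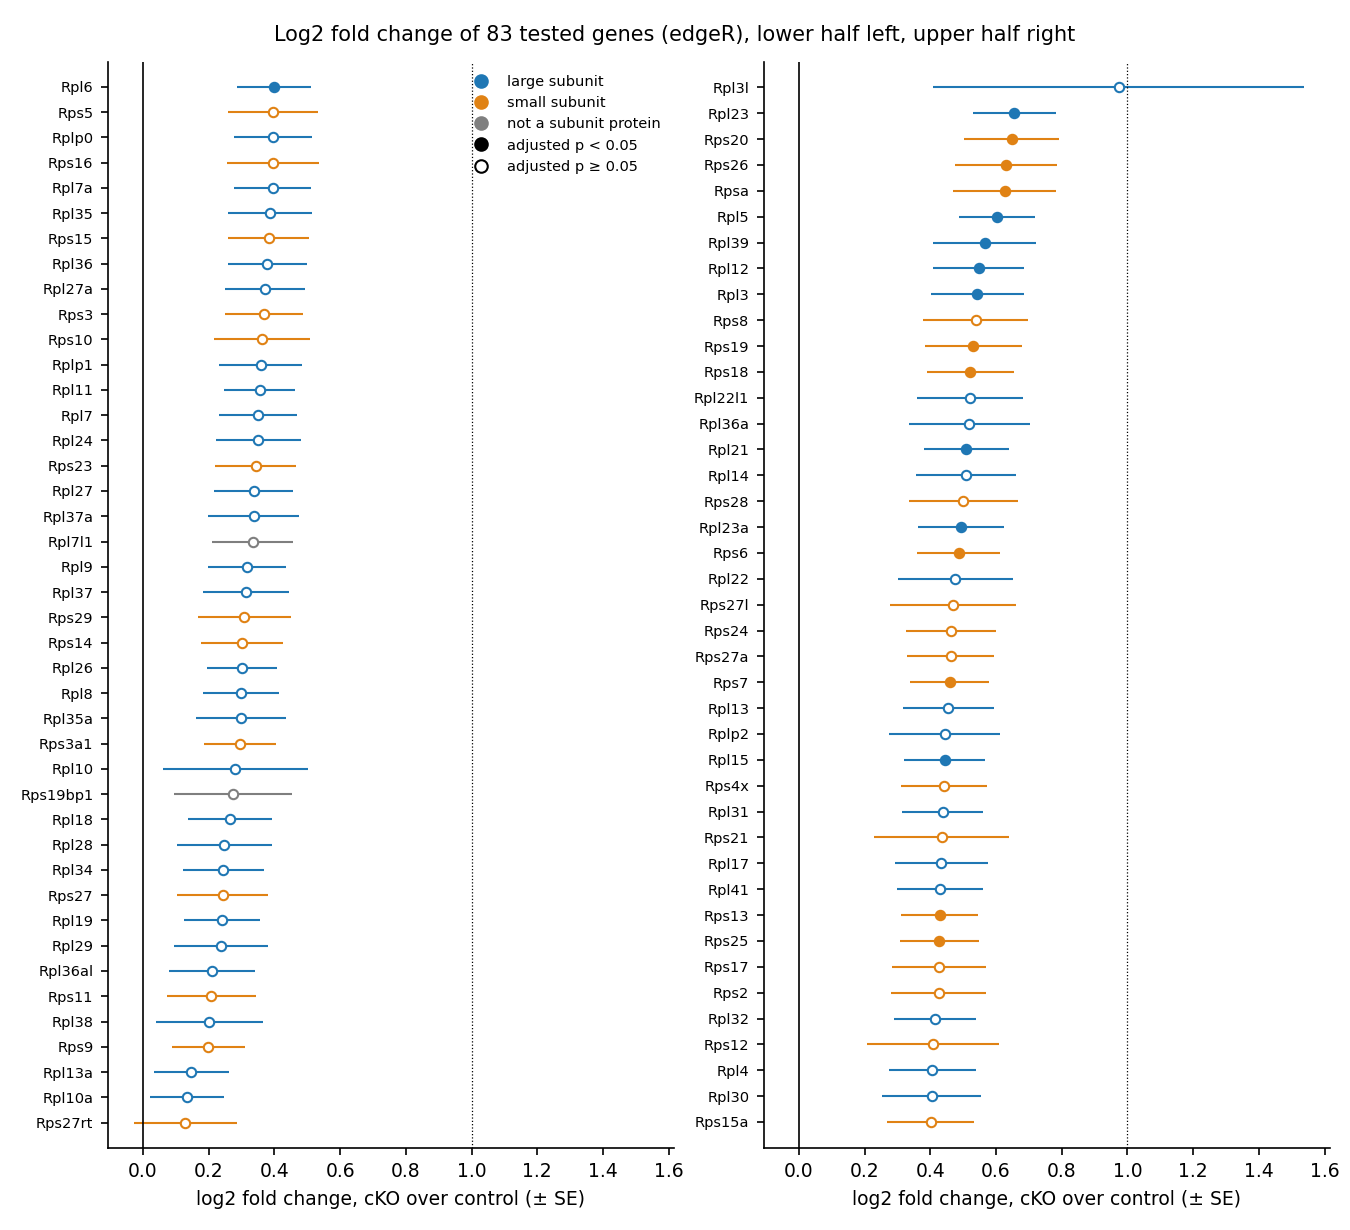
Log2 fold change (cKO over control, x axis) with its standard error for 83 of the 84 tested genes, ordered by size, with the lower 42 on the left; blue marks large-subunit, orange small-subunit and grey the remaining genes, filled points have an edgeR adjusted p below 0.05, and the dotted line marks a log2 fold change of 1. All points lie above 0, from 0.13 for Rps27rt to 0.97 for Rpl3l, and 18 are filled.

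Large-subunit genes made up 9 of the 18 calls, out of 49 tested, with a median log2 fold change of 0.39. Rpl5 (chr5:107900502-107909005, plus strand, GRCm38), whose protein carries the 5S ribosomal RNA into the ribosome together with Rpl11, had 513, 577 and 641 CPM in control and 911, 831 and 887 CPM in cKO. The lowest cKO library thus exceeded the highest control library, and Rpl5 rose 1.52-fold (log2 fold change 0.60 ± 0.11 SE, edgeR adjusted p = 0.0122). Rpl23 (chr11:97777527-97782437, minus strand), a protein of the face that meets the small subunit, had 139, 153 and 173 CPM in control and 266, 220.3 and 245 CPM in cKO. It showed the largest rise among the called genes (log2 fold change 0.66 ± 0.13 SE, edgeR adjusted p = 0.0124), again without overlap.

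The other 7 large-subunit calls were smaller. Rpl3, next to the peptidyl transferase centre, rose by a log2 fold change of 0.54 ± 0.14. Rpl12, at the base of the stalk that recruits translation factors, rose by 0.55 ± 0.14. Rpl39, which lines the peptide exit tunnel, rose by 0.57 ± 0.16. Rpl23a, at the exit of that tunnel, rose by 0.49 ± 0.13, and its near namesake Rpl23 is an unrelated protein. Rpl21, Rpl15 and Rpl6, which bind the large-subunit RNA, rose by 0.51 ± 0.13, 0.44 ± 0.12 and 0.40 ± 0.11. The edgeR adjusted p-values of these 7 genes ran from 0.0346 for Rpl21 to 0.0491 for Rpl6. Each had its 3 cKO values above its 3 control values.

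Small-subunit genes made up the other 9 calls, out of 33 tested, with a median log2 fold change of 0.43. Rps20 (chr4:3831334-3835665, minus strand), a protein of the head of the small subunit, had 40.7, 49.1 and 53 CPM in control and 81.6, 71.8 and 70.4 CPM in cKO. That is a rise of 1.57-fold (log2 fold change 0.65 ± 0.14 SE, edgeR adjusted p = 0.0217) with the groups well apart. Rps26 (chr10:128624534-128626747, minus strand), which touches the messenger RNA just upstream of the start codon, had 107, 138 and 159 CPM in control and 234, 192 and 199.9 CPM in cKO. It rose by a log2 fold change of 0.63 ± 0.16 SE, at an edgeR adjusted p of 0.0314. Rpsa (chr9:120127689-120132369, plus strand), also known as the laminin receptor, had 158, 218 and 244 CPM in control and 321, 295 and 340.2 CPM in cKO. Its rise was of the same size (log2 fold change 0.63 ± 0.16 SE, edgeR adjusted p = 0.0331), and the groups did not overlap.

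The other 6 calls of this subunit were smaller. Rps6, the substrate of the S6 kinases, had 353, 407 and 477 CPM in control and 597, 551 and 585 CPM in cKO and rose by a log2 fold change of 0.49 ± 0.13. Rps19, the gene most often mutated in Diamond-Blackfan anaemia, rose by 0.53 ± 0.15. Rps18, which contacts the large subunit, rose by 0.52 ± 0.13. Rps7, another Mdm2-binding protein, rose by 0.46 ± 0.12. Rps13 and Rps25 rose by 0.43 ± 0.12 each, the latter being known for its part in initiation on internal ribosome entry sites. The edgeR adjusted p-values of these genes ran from 0.0353 for Rps18 to 0.0497 for Rps25.

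The threshold cut through a continuous series of values. Just inside it were Rps19, Rpl6 and Rps25 with edgeR adjusted p-values of 0.0469, 0.0491 and 0.0497. Just outside were Rpl31 (log2 fold change 0.44), Rps27a (0.46) and Rpl7a (0.39), with edgeR adjusted p-values of 0.0504, 0.051 and 0.0564. Rps27a is made as a fusion with ubiquitin, and its CPM of 149.7, 191 and 202 in control and 260.4, 236 and 251 in cKO did not overlap.

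Several proteins with roles of their own did not pass the test. Rpl11, the partner of Rpl5 in the 5S particle, had a log2 fold change of 0.36 ± 0.11, at an edgeR adjusted p of 0.0621, and its CPM of 142, 160.5 and 162 in control and 204, 196 and 195 in cKO were apart. The stalk proteins Rplp0, Rplp1 and Rplp2 had log2 fold changes of 0.40, 0.36 and 0.44 with edgeR adjusted p-values of 0.0597, 0.0978 and 0.119. Rpl26, which is linked to the translation of p53 mRNA, had 0.30 (edgeR adjusted p = 0.0985). Rps14, in the locus lost in the human 5q- syndrome, had 0.30 (edgeR adjusted p = 0.146).

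Rps3, which also takes part in DNA repair, had a log2 fold change of 0.37, at an edgeR adjusted p of 0.072. The X-linked Rps4x had 0.44 (edgeR adjusted p = 0.0581), and the 4 tested genes on the X chromosome had a median of 0.48 with 1 call, Rpl39. That call was lost in each of the 6 fits that left out 1 library. For Rpl10, which is needed for the joining of the subunits and is mutated in some T cell leukaemias, the 90, 119 and 179 CPM in control overlapped the 162, 132 and 178 CPM in cKO. Its standard error of 0.22 was among the wider ones, and its log2 fold change was 0.28 (edgeR adjusted p = 0.447). Rpl38, known for a patterning defect in the mouse, and Rpl13a, a part of the interferon-activated inhibitor of translation, were near the lower end at 0.20 (edgeR adjusted p = 0.459) and 0.15 (edgeR adjusted p = 0.436), and both overlapped between the groups. In all, 13 tested genes overlapped.

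**Figure D3:**
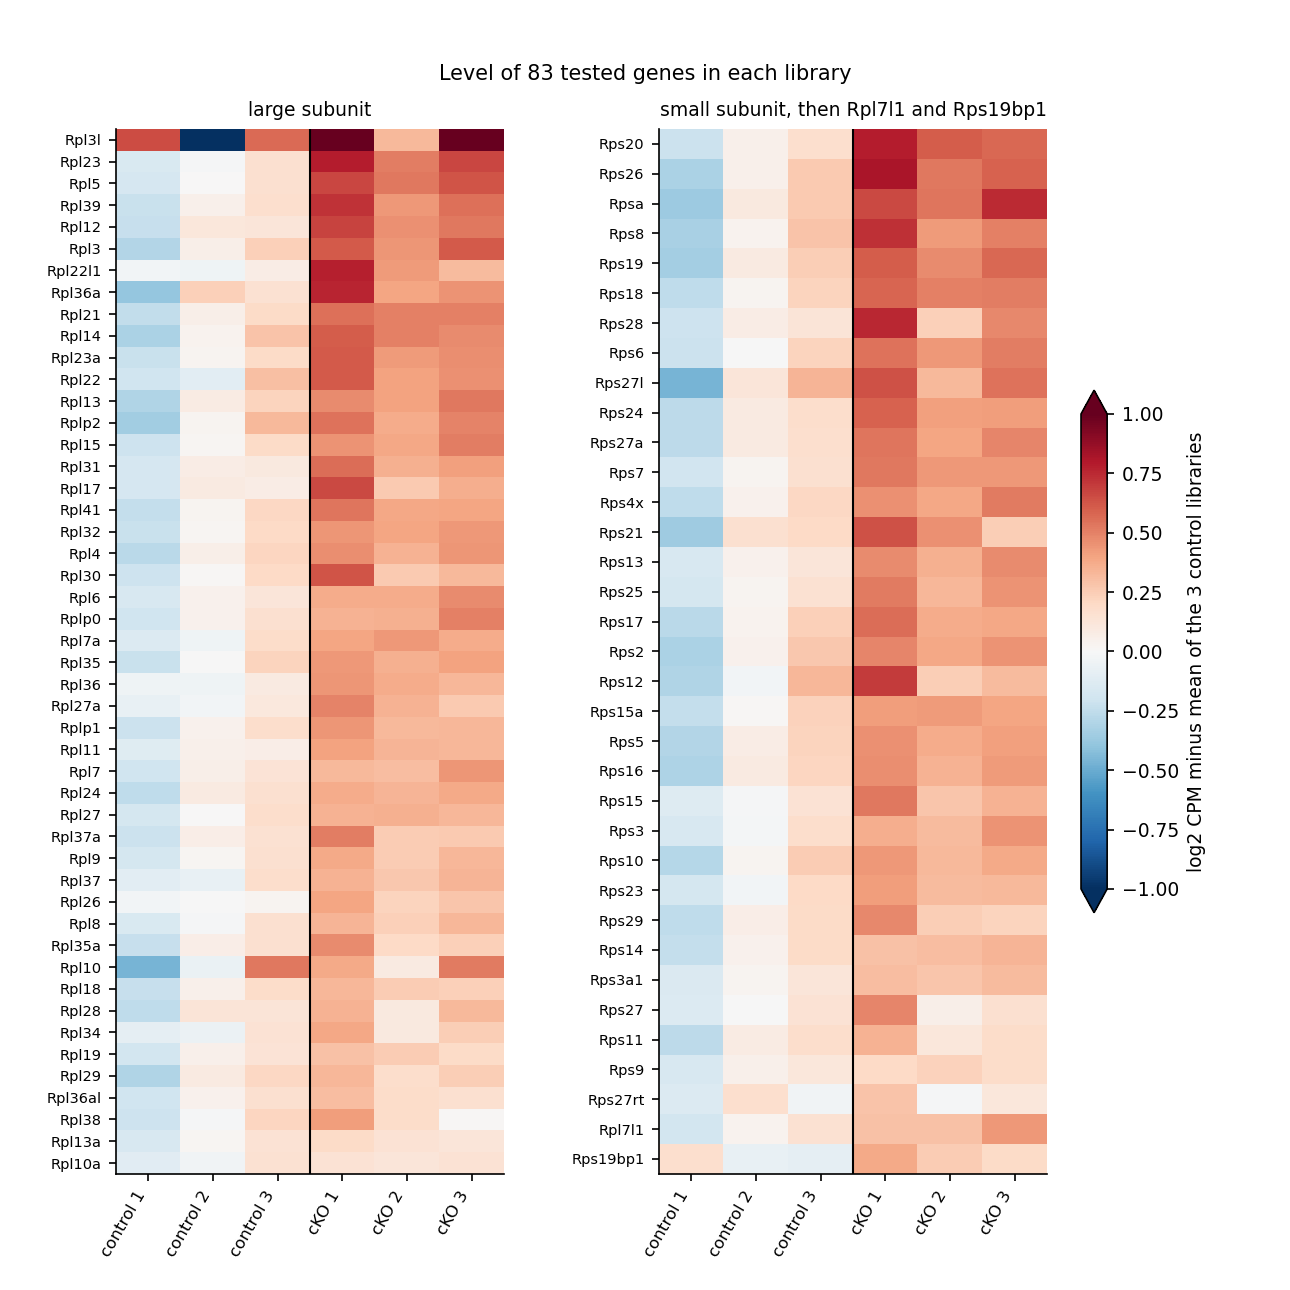
Log2 CPM of 83 of the 84 tested genes in each library minus the mean of the 3 control libraries (colour, blue below and red above, cut at -1 and 1), with large-subunit genes on the left, small-subunit and remaining genes on the right, each ordered by fold change, and a black line between control and cKO. Control library 1 is the column with the lowest values, in 81 of all 84 genes, and cKO library 1 has the highest of the 6 values in 64 of them.

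The libraries differed within a group in a way that the whole family shared. The median deviation from the control mean was -0.22 in control library 1, 0.04 in control library 2 and 0.17 in control library 3 on the log2 scale, and 0.47, 0.34 and 0.40 in cKO libraries 1, 2 and 3. Control library 3 was the highest control for 78 of the 84 genes, and cKO library 1 the highest cKO library for 65. The gap between the groups was therefore of the same order as the range among the controls.

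The makeup of the family was read from each gene's share of the family's counts. Rplp0 was the gene with the largest share of the family's counts, 5.17% ± 0.0776 in control and 5.17% ± 0.334 in cKO. Rpl5 took 3.67%, 3.47% and 3.48% of the family's counts in the control libraries and 4.11%, 4.04% and 4.09% in the cKO libraries, without overlap. Rpl13a went the other way, from 2.03% ± 0.0701 to 1.71% ± 0.0625, although its own CPM were not lower in cKO.

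Per length, the tested genes spanned a wide range of levels. The median of the mean FPKM (fragments per kilobase, scaled to library size) over the 84 genes was 239.6, against 12.7 for other tested genes, and 71 of the 84 were among the 1000 tested genes with the highest mean FPKM. Among the highest levels were those of Rps14, with 817, 978 and 1074 FPKM in control and 1188, 1198 and 1205 in cKO, and of Rplp0, with 568, 666 and 713 and then 827, 843 and 919. Neither passed the test, with log2 fold changes of 0.30 and 0.40. At the low end stood Rpl3l with a mean FPKM of 2.58, Rps20 with 16.5 and Rps19bp1, a protein that binds Rps19, with 22.6. The low FPKM of Rps20 goes with a gene length of 3706 bases implied by its counts and FPKM, against a median of 696 over the 84 genes. Rps19bp1 had a log2 fold change of 0.27, at an edgeR adjusted p of 0.357.

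Across the 84 genes, the log2 fold change correlated with the log2 mean FPKM with Pearson's r of -0.38 and Spearman's rho of -0.14. With log2 gene length the values were 0.35 and 0.21, and with GC content -0.17 and -0.18. These are descriptions across genes that share the same 6 libraries. They include Rpl3l, which had both the lowest mean FPKM (2.58) and the highest log2 fold change (0.97 ± 0.56 SE). They also include Rps20, with a log2 fold change of 0.65 and a length of 3706 bases. The correlations without these genes were not computed. Ribosomal protein genes were shorter than other tested genes (median 696 and 2507 bases) and much more abundant, and their median GC content was 51.9% against 50.3%. When an offset for length, GC content or level, fitted without the ribosomal protein genes, was added to the test, the median log2 fold change was 0.44, 0.44 and 0.42, and 62, 34 and 28 genes were called, with 6.15%, 4.76% and 5.21% of all tested genes called higher.

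Genes of paralogue pairs were compared per length as a percentage of the standard partner. Rpl22, which is needed for the development of αβ T cells, had 46.1, 47.6 and 60.8 FPKM in control and 81.1, 70.8 and 72.1 in cKO, and its paralogue Rpl22l1 had 60, 58.5 and 62.7 and then 105, 82.8 and 75.8. Both were apart between the groups without passing the test (log2 fold changes 0.48 and 0.52, edgeR adjusted p = 0.108 and 0.0639), and Rpl22l1 stood at 119% ± 14 of Rpl22 in control and 117% ± 12.2 in cKO. Rps27l, a p53 target, stood at 24.5% ± 4.56 of Rps27 in control and 29.2% ± 2.36 in cKO, with 19.3%, 26.5% and 27.7% against 26.9%, 29.1% and 31.6%, which overlap. Its log2 fold change was 0.47, with an edgeR adjusted p of 0.144, and that of Rps27 was 0.24 (edgeR adjusted p = 0.286).

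The autosomal Rpl36al, with 136, 159 and 170.1 FPKM in control and 194, 178 and 174 in cKO, was the more abundant partner of the X-linked Rpl36a in every library. It stood at 183%, 142% and 162% of Rpl36a in the control libraries and at 119%, 139% and 133% in the cKO libraries, so that the lowest control value lay just above the highest cKO value. Their log2 fold changes were 0.21 (edgeR adjusted p = 0.329) and 0.52 (edgeR adjusted p = 0.0966). Rpl7l1, a factor in the making of the large subunit, stood at 19.5% ± 1.17 and 18.8% ± 0.452 of Rpl7, with log2 fold changes of 0.33 and 0.35.

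Paralogues known from other tissues were close to absent. Rpl3l, of heart and skeletal muscle, stood at 0.579% ± 0.36 of Rpl3 in control and 0.747% ± 0.342 in cKO, and its log2 fold change of 0.97 had a standard error of 0.56 (edgeR adjusted p = 0.294). Rpl39l, of the testis, had 3, 3 and 10 counts in control and 0, 17 and 16 in cKO and did not pass the filter. The testis gene Rpl10l had no count in any library, and the retrogene Rps23rg1 had at most 4. Rps27rt, an Rps27 retrogene, stood at 14.8% ± 1.83 and 13.7% ± 0.78 of Rps27 and had the lowest log2 fold change of the 84, 0.13 (edgeR adjusted p = 0.646). Where copies are as alike as these, and for the many processed pseudogenes of the family, reads can be shared between genes, and no source used here says how the counting treated them.

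**Figure D4:**
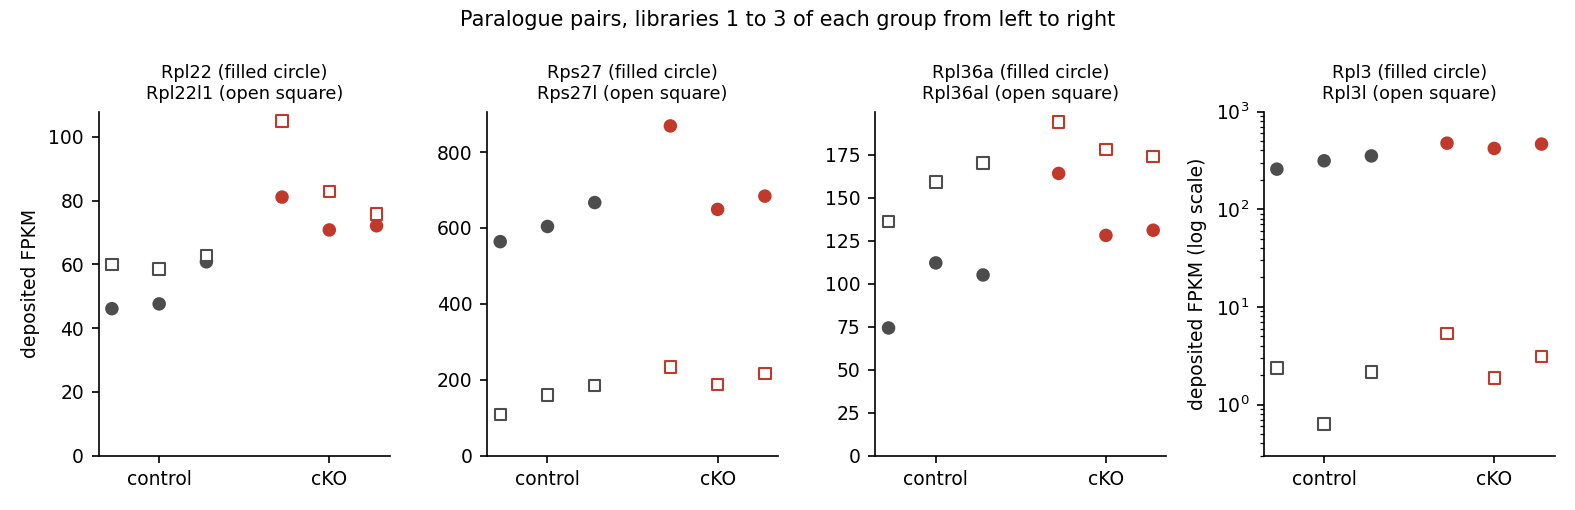
Deposited FPKM (y axis, from 0 in the first 3 panels and on a log scale in the last) of 4 paralogue pairs in the 3 control (grey) and 3 cKO (red) libraries, with filled circles for the standard gene and open squares for the paralogue. Rpl22l1 lies above Rpl22 and Rpl36al above Rpl36a in every library, while Rpl3l stays between 0.63 and 5.31 FPKM.

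Since the TOP element is a feature of these mRNAs, the annotated start sites were read. RefSeq windows on GRCm38.p6 were at hand for 67 of the 87 genes (79 windows), 14 of the 18 called ones among them. Shown are the 15 bases before and the first 15 bases of the annotated transcript, 5′ to 3′ on the gene's own strand. Capitals mark the longest pyrimidine run that begins with C. The first 3 are called genes with such a run that covers the start, and the next 2 called genes with one shortly after it. The 3 after those are called genes with no such run of more than 3 bases. Rpl13a and Rpl38 had low fold changes, and Rps27 and Rps27rt are a gene and its retrogene.
Rpl15: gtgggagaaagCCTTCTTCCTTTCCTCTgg
Rps18: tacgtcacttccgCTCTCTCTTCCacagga
Rps6: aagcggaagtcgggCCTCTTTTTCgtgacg
Rps26: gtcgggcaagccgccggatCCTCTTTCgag
Rpl12: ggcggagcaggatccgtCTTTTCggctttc
Rpl5: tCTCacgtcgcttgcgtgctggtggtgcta
Rpl23: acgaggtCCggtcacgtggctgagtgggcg
Rpsa: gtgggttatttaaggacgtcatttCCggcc
Rpl13a: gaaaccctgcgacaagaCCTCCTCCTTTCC
Rpl38: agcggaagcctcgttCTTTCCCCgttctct
Rps27: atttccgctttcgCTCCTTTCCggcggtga
Rps27rt: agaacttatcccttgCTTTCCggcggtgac

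These windows lie at chr14:18270972-18271001 (minus strand) for Rpl15, chr17:33955651-33955680 (minus) for Rps18, chr4:86857353-86857382 (minus) for Rps6, chr10:128626492-128626521 (minus) for Rps26, chr2:32961697-32961726 (plus) for Rpl12 and chr5:107900513-107900542 (plus) for Rpl5. Those of the others are chr11:97782425-97782454 (minus) for Rpl23, chr9:120127751-120127780 (plus) for Rpsa, chr7:45128731-45128760 (minus) for Rpl13a, chr11:114668565-114668594 (plus) for Rpl38, chr3:90213634-90213663 (minus) for Rps27 and chr9:114982725-114982754 (minus) for Rps27rt. The windows of Rps27 and Rps27rt share an unbroken stretch of 14 letters, ctttccggcggtga.

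A C at the annotated start followed by at least 4 pyrimidines was present in 17.7% of the 79 windows, against 2.51% of all 32851 windows in the table and 0% of 75 windows of mitochondrial ribosomal protein genes. A C followed by at least 5 pyrimidines anywhere within 15 bases of the start was present in 49.4%, 22.5% and 26.7%. Annotated starts can be some bases away from those used in thymocytes. The 14 tested genes with the run at the start had a median log2 fold change of 0.40 and 3 calls, and the 50 without it also had 0.40, with 11 calls. Rpl5, Rpl23 and Rpsa, all called, had no pyrimidine run beginning with C of more than 3 bases in the window. Rpl13a, with such a run of 13 bases, was not called.

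In the full 300-base windows (250 before and 50 after the start, both strands), the Ets core CCGGAAGT, the letters bound by Gabpa, was found in 15.2% of windows of ribosomal protein genes, 3.89% of all windows and 16% of those of mitochondrial ribosomal protein genes. The YY1 core AAGATGGC was found in 10.1%, 2.75% and 16%. The GC box GGGCGG was found in 59.5%, 35.7% and 52%, the E box CACGTG in 10.1%, 7.15% and 9.33%, and the TATA box TATAAA in 8.86%, 13.6% and 6.67%. No motif contains another. The 12 tested genes with the Ets core had a median log2 fold change of 0.43 and 4 calls, and the 52 without it 0.40 and 10 calls. The 6 with the YY1 core had a median of 0.32 and no call, and the 58 without it 0.41 and 14 calls.

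Genes linked to the family were compared next. Outside the symbol pattern, Fau, whose ribosomal protein is made as a fusion with a ubiquitin-like part, and the ribosomal scaffold Rack1 had log2 fold changes of 0.14 and 0.18, and neither was called. The mitochondrial family had a median of 0.02 over 78 tested genes, 42 of them positive, with 2 called higher and 0 lower, and 5 higher and 3 lower at an unadjusted p below 0.05. Of 15 other mRNAs known to carry a TOP element, 14 were tested. All 14 were positive with a median of 0.36, and 5 rose.

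The translation elongation factor subunit Eef1g had 132, 182 and 183 CPM in control and 279, 284 and 306 CPM in cKO, a log2 fold change of 0.81 ± 0.14, at an edgeR adjusted p of 0.00923. The nucleolar protein Npm1 rose by 0.70, the RNA-binding Hnrnpa1 and the histone chaperone Nap1l1 by 0.69 each, and the elongation factor subunit Eef1b2 by 0.56. Elongation factors Eef1a1 and Eef2, among the most abundant TOP mRNAs, had 0.24 (edgeR adjusted p = 0.281) and 0.10 (edgeR adjusted p = 0.63). The TOP mRNAs thus varied among themselves more widely than the ribosomal protein genes, with an SD of 0.256 against 0.133.

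**Figure D5:**
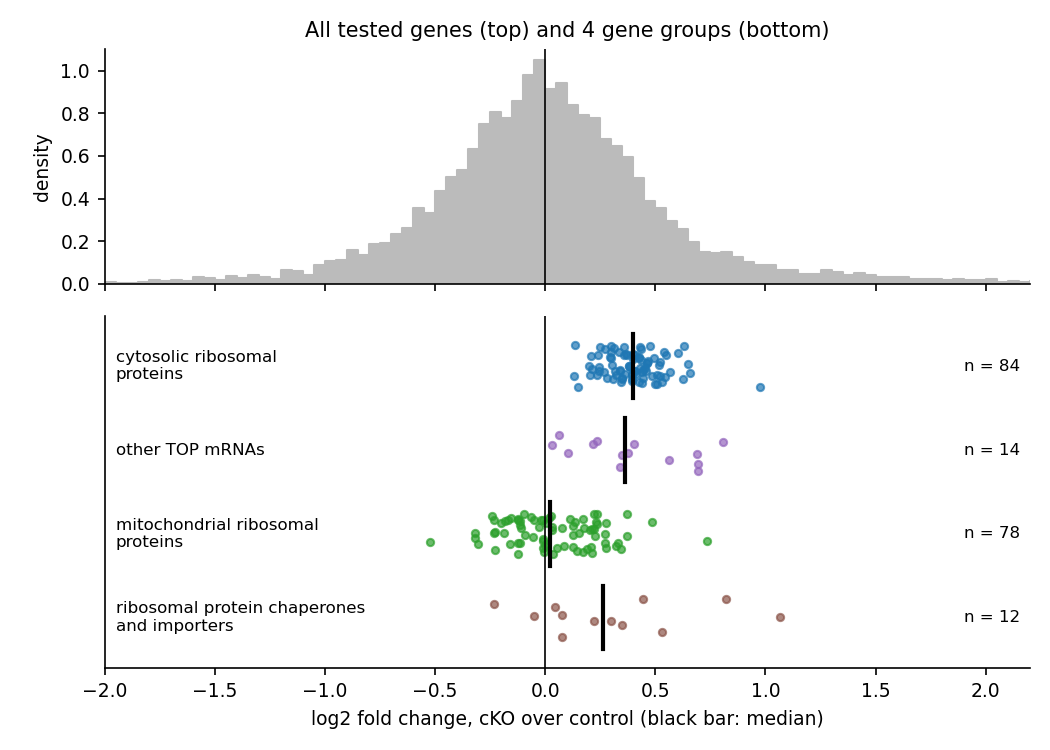
Distribution of the log2 fold change (cKO over control, x axis) over all 11488 tested genes (top, density) and the values of the 84 cytosolic ribosomal protein genes, 14 other TOP mRNAs, 78 mitochondrial ribosomal protein genes and 12 ribosomal protein chaperones and importers (bottom, 1 point per gene, spread at random in height; black bar, median). The medians are 0.40, 0.36, 0.02 and 0.26, and the first group lies entirely to the right of 0.

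Among 12 chaperones and nuclear importers of ribosomal proteins, 10 were positive with a median of 0.26, and 2 rose. These were the importins Ipo7, with 39.5, 47.2 and 46.8 CPM in control and 99.3, 78.7 and 102 CPM in cKO (log2 fold change 1.07 ± 0.15, edgeR adjusted p = 0.00461), and Ipo5 (0.82 ± 0.18, edgeR adjusted p = 0.0196). Tsr2, the chaperone of Rps26, and Grwd1, that of Rpl3, had 0.53 (edgeR adjusted p = 0.0716) and 0.44 (edgeR adjusted p = 0.123). Of 11 genes for the control of TOP mRNAs, 0 were called by edgeR in either direction, with 2 higher and 3 lower at an unadjusted p below 0.05. Larp1 had 0.43 (edgeR adjusted p = 0.113), Mtor 0.20 (edgeR adjusted p = 0.346) and its partner Rptor -0.42 (edgeR adjusted p = 0.0638).

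Of 10 regulators, 1 was called, Znhit6, a factor for assembly of box C/D small nucleolar ribonucleoproteins. It had 7.05, 9.2 and 8.96 CPM in control and 14.5, 14.5 and 15.5 CPM in cKO. Before adjustment, at a p below 0.05, 2 regulators were higher and 2 lower. The lower ones were Mdm4, which stood at -0.40 on the log2 scale, and Mycn, at -0.76. Neither passed the test, and each had its 3 cKO values below its 3 control values. Mdm2, the target of free Rpl5 and Rpl11, had 0.42 (edgeR adjusted p = 0.0912), and Trp53 0.21 (edgeR adjusted p = 0.35). Myc, which drives transcription of ribosomal protein genes, had 52.5, 55.6 and 72 CPM in control and 78.4, 54.9 and 67.7 CPM in cKO, which overlap (log2 fold change 0.16, edgeR adjusted p = 0.606).

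Markers of cell state and of other cell types were read in the same libraries, and some differed between the groups, in either direction. Of 12 proliferation genes, 7 rose, all of them replication genes (Mcm2 to Mcm7 and Pcna), and the summed level of the 12 was 4129 to 6281 CPM in control and 6911 to 9193 CPM in cKO. As for the ribosomal protein genes, control library 1 was lowest and control library 3 highest among the controls, but among the cKO libraries, with 6911, 7818 and 9193 CPM, library 1 was lowest here and highest for the ribosomal protein genes. Of 12 DP markers, 4 fell and 0 rose by edgeR, and at an unadjusted p below 0.05, 9 were lower and 0 higher. Of 10 double-negative and immature single-positive stage genes, 7 were tested and 3 rose (Hes1, Il2ra and Dtx1), while Kit and Notch3 had log2 fold changes of -0.93 and -0.76 without passing the test. Their summed level was 167 to 198 CPM in control and 256 to 277 CPM in cKO, most of it from Notch1 and, in cKO, Hes1, and Erg was at 0 in every library.

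Of 20 macrophage markers, 14 were tested and 7 rose, with a sum of 36.9 to 66.7 CPM in control and 85.7 to 109.5 CPM in cKO. Adgre1 was at 0 in the controls and Mertk and Marco in every library. B cell markers summed to 40.9 to 45.8 CPM in control and 25.8 to 28.9 CPM in cKO, with 1 of 6 tested, which fell. Erythroid markers summed to 26.6 to 141 CPM and 0.684 to 48.4 CPM, with 5 of 6 tested and none called. Dendritic cell markers summed to 1.54 to 3.96 CPM and 4.06 to 6.25 CPM, with 2 of 5 tested and none called. The part of these cells and stages in the levels of the ribosomal protein genes was not tested.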

How the data were processed

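RNA from sorted DP thymocytes, 3 libraries per genotype, was sequenced on an Illumina HiSeq. The methods of the study name a whole-transcriptome amplification kit and the labels a SMARTER kit, so the chemistry is uncertain. The submitters' processing notes name fastp 0.18.0, Bowtie2 2.2.8, HISAT2, StringTie and RSEM. No source used here gives the build, the strand setting or the treatment of reads with several matches. The authors deposited raw counts per gene and library, and FPKM values scaled by gene length and library size. The log2 fold change, p-value and FDR columns that the authors deposited hold their own comparison and were not used.

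The genes and lists were chosen with earlier results of these data known. Genes named in the text are all those with an adjusted p below 0.05, those with a role of their own, paralogue pairs, the 3 highest and 3 lowest in mean FPKM, and the 3 next in p. Some genes within this rule and the lists are not reported here.

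Counts were fitted in R 4.3.3 with edgeR 4.0.16: filterByExpr (minimum count 10, minimum total 15), TMM factors, a quasi-likelihood test of genotype over all 11488 tested genes and Benjamini-Hochberg adjustment. CPM are scaled by TMM factors, and before that scaling 1 count is worth 0.0381 to 0.0527 CPM. Shares were taken of the counts of all genes in the table. Replicate libraries had a chi-square per degree of freedom of 19.1 to 64.9, where sampling noise alone gives about 1, so none was a duplicate. Positions were taken from GENCODE M21 (GRCm38) by identifier for all 87 genes, GC content from its transcripts, gene length from the ratio of counts to FPKM, and start windows from RefSeq. The script was tested on simulated data. Alternatives were DESeq2 1.42.0, limma-voom (limma 3.58.1), other scalings and filters, a replicate block, leaving out each library and 3 offsets chosen after seeing the data.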

Additional observations from a re-analysis of the deposited data

How the results depend on the processing

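The direction did not depend on the processing: in each of 17 alternatives every ribosomal protein gene that was tested in the main comparison had a positive log2 fold change. The number of genes called higher did. It was 18 with edgeR and TMM (4.47% of all tested genes called higher), 46 with DESeq2 (8.3%) and 28 with limma-voom (5.22%). With total counts alone as the scaling it was 30 (5.01%), and with a minimum mean of 5 CPM also 30 (6.79%). Offsets chosen after seeing the data gave 62 for gene length (6.15%), 34 for GC content (4.76%) and 28 for expression level (5.21%). RLE factors, TMM factors computed without the family, and no filter on low counts each gave 20 (4.75%, 4.6% and 3.94%). Leaving out 1 library at a time gave 0 to 22 calls in the family (0.359% to 8.42% of all tested genes called higher). The median log2 fold change was then 0.30 to 0.50 for the tested genes of the family. It was 0.30 to 0.47 for the large subunit and 0.29 to 0.53 for the small subunit. The family's share of all counts differed by 0.435 to 0.634 percentage points. Where 0 were called (without control library 2, cKO library 1 or cKO library 3), edgeR gave 52, 42 and 53 genes of the family at an unadjusted p below 0.05. The count over all tested genes at this limit was not taken for these fits. As a share of summed FPKM, the family differed by 1.26 points instead of 0.541.

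With the replicate number as a block, 18 genes were called (4.96% of all tested genes called higher), 14 of them also called without it. Deviations from the group means correlated by 0.05, 0.04 and -0.03 for same-numbered libraries, which does not settle whether the numbers pair them. Depth limits the rarest genes: Rpl39l, Rps23rg1 and Rpl10l had too few counts to be tested.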

Other observations

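The 7 processed pseudogenes with a ribosomal protein symbol have entries of their own in the table. Rpl10-ps3 had 1615, 2092 and 2165 counts in control and 2664, 2458 and 1875 in cKO, which overlap, and its total came to 0.532% of the counts of the 87 genes. Its log2 fold change was 0.29 ± 0.17 SE (edgeR adjusted p = 0.304), beside 0.28 ± 0.22 SE for Rpl10, whose coding sequence such a copy resembles. Rpl10 had 1735, 2313 and 4620 counts in control and 3549, 2542 and 3854 in cKO. The libraries were thus ordered differently, with cKO library 3 the lowest cKO library for Rpl10-ps3 and the highest for Rpl10. Rps18-ps6 and Rpl9-ps6 had 227 and 168 counts over the 6 libraries and were not called, and the other 4 had at most 38.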
